A study of Homo sapiens with 6 samples.

Results

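Matrix metalloproteinases (MMPs) and their tissue inhibitors (TIMPs) were followed by RNA sequencing in FaDu, an established line of human hypopharyngeal squamous carcinoma cells. The 10 genes were picked by name: MMP1, MMP3, MMP9, MMP10, MMP13, MMP14, MMP28, TIMP1, TIMP2 and TIMP3, out of 58825 gene identifiers in the count table. The tested cells carried a short hairpin RNA against NSUN2, an enzyme that places 5-methylcytosine on RNA (shNSUN2, 3 libraries). They were set against FaDu cells whose titles name no hairpin (FaDu, 3 libraries). All libraries came from total RNA of the same cell line. Since no control hairpin is named for the comparison, loss of NSUN2, the hairpin and its delivery cannot be told apart. The labels do not say whether the knockdown cells were 1 clone or a pool, nor whether replicates were separate cultures, so the p-values measure the spread between these libraries, which may be technical. The study asks what lies downstream of NSUN2 knockdown in these cells.

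MMPs are zinc-dependent proteases that are made with a blocking propeptide and, once it is removed, cut proteins of the extracellular matrix. TIMPs bind the active site of MMPs and stop them. In squamous carcinomas, collagenases, stromelysins and the membrane-anchored MMP14 are made by tumour cells as well as by the cells around them, and transcript levels alone say nothing of how much protease is active.

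The members moved in opposite directions in shNSUN2 cells. Levels are given as counts per 1000000 of the scaled (TMM-adjusted) library total (CPM). MMP10, a stromelysin, was 5.63-fold higher, whereas MMP14 was at 49.8% and MMP28 at 8.24% of the FaDu level. The collagenases MMP1 and MMP13, the stromelysin MMP3 and the 3 TIMPs had fitted values from 103% to 144% of FaDu and did not pass the test. MMP9 was close to undetected. Of the 10 members, 9 had enough counts to be tested, and 1 was called higher and 2 lower by edgeR (quasi-likelihood test, Benjamini-Hochberg adjusted p under 0.05 over all 19081 genes tested). Of all genes in that test, 8.54% had a call upwards and 9.97% downwards, 18.5% in all; with offsets for GC content and length these shares were 14.7% and 11.6%, and without shNSUN2 replicate 2 they were 8.31% and 9.08%. The levels of shNSUN2 and FaDu did not overlap for 3 members that were higher and 2 that were lower, where 20.3% and 22.1% of all tested genes did the same (42.3% in either direction). The median log2 fold change was 0.30 over the 9 tested members and -0.007 over all genes tested. In these bulk libraries, fewer cells making a transcript and less of it per cell cannot be told apart.

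**Figure D1:**
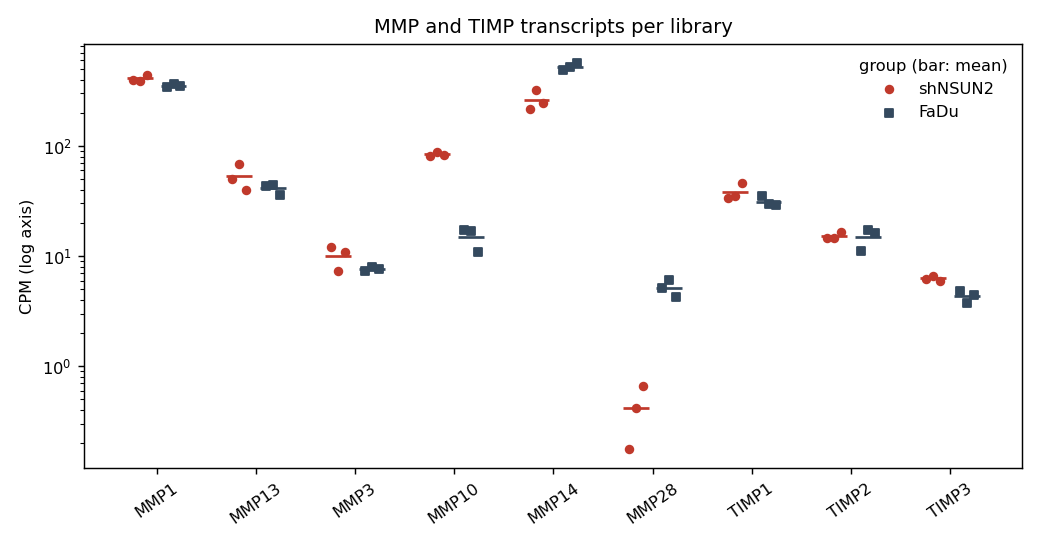
Scaled counts (CPM, log axis) of 9 members in each library, with shNSUN2 (circles) left of FaDu (squares) and a bar at each group mean. MMP10 lies above and MMP14 and MMP28 lie below FaDu in every shNSUN2 library; MMP9, at 0 in 5 of 6 libraries, is not drawn.

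The upstream sequences of MMP10, MMP7 and MMP14 are shown because the first pair rose, MMP14 fell, and the letters of the AP-1 site, a known element of MMP promoters, were searched in them. They are RefSeq sequences on GRCh38.p14, 5′ to 3′ on each gene's strand. Each runs up to the last base before the gene as annotated in GENCODE 29. Its starts for MMP7 and MMP14 differ from those of RefSeq, so 244 and 222 bases are printed for them, and 250 for MMP10. MMP10 covers chr11:102780629-102780878 (minus strand), MMP7 chr11:102530754-102530997 (minus strand) and MMP14 chr14:22836335-22836556 (plus strand). Capitals mark TGANTCA on either strand.
MMP10: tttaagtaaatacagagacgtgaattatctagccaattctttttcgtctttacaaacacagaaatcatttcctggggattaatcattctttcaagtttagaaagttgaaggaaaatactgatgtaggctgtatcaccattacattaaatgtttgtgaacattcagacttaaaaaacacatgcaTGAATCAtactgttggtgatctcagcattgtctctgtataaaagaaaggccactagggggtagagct
MMP7: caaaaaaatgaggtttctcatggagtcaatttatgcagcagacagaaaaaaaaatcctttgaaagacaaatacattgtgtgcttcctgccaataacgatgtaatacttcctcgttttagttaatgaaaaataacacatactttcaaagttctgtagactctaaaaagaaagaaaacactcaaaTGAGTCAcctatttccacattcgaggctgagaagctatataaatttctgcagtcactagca
MMP14: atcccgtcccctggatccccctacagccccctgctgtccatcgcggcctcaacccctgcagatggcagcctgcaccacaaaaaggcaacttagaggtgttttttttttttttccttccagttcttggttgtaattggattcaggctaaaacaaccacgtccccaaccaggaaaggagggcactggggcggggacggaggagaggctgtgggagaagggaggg
The letters TGANTCA stood 67 bases before the RefSeq gene start of both MMP10 and MMP7, which for MMP7 is 61 bases before the end of the printed stretch, and 7.71% of the 35116 promoters in the table (250 bases before to 50 after the start) held them. Of the 4 members in the table (MMP10, MMP14, TIMP1 and TIMP3), 1 held them, and none held the TEAD letters GGAATG, which were in 14% of all promoters. The AP-1 letters were in 2 of the 11 other family genes with an entry, MMP7 and MMP20, and MMP20 was at 0 in every library. MMP15, called higher, had an entry without them, as had MMP11 and TIMP4, called lower. These are matches of letters and not binding data.

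NSUN2 itself had 50.4, 34.7 and 39.6 CPM in the shNSUN2 libraries, against 169, 173 and 156 CPM in the FaDu libraries (log2 fold change -2.0, SE 0.16, edgeR adjusted p = 5.26e-04; exact two-sided permutation p = 0.1, the smallest that 3 against 3 libraries allow). Library totals were 58577723 to 72788971 estimated counts in shNSUN2 and 53612358 to 72043755 in FaDu. Replicate 3 of shNSUN2 stood apart by base composition, since its log2 difference from the other shNSUN2 libraries had a Spearman rho of 0.565 with gene GC content across 12818 genes, which share that library. The same measure was -0.476 and -0.333 in shNSUN2 replicates 1 and 2, and 0.226, -0.284 and 0.049 in FaDu replicates 1, 2 and 3. Squamous epithelial markers were all tested, 1 of 10 was called higher and 8 lower, and their summed level was 1910 to 2310 CPM in shNSUN2 and 3650 to 3820 CPM in FaDu. Beside this list and those below, 8.54% of all tested genes were called higher and 9.97% lower. Among markers of other cells that can supply MMPs, fibroblast genes summed to 6.56 to 11.9 CPM in shNSUN2 and 9.04 to 9.63 CPM in FaDu, with 5 of 10 tested, COL1A2 called higher, and FAP and POSTN at 0 throughout. Macrophage and monocyte genes summed to 39.1 to 47.0 CPM in shNSUN2 and 31.7 to 52.5 CPM in FaDu, with 4 of 10 tested, none called and PTPRC at 0. Of 7 neutrophil markers 5 were at 0 in every library and the 1 that was tested was not called, at summed levels of 0.0741 to 0.623 CPM in shNSUN2 and 0.294 to 0.855 CPM in FaDu. Some markers of other tissues also differed between the groups. Prostate luminal markers summed to 53.8 to 70.4 CPM in shNSUN2 and 31.2 to 33.8 CPM in FaDu, with all 8 tested, 4 higher and 1 lower. Plasma and B cell genes summed to 1.90 to 5.11 CPM in shNSUN2 and 0 to 0.267 CPM in FaDu, with 3 of 7 tested, all 3 higher, and MS4A1 at 0. Smooth muscle genes summed to 39.2 to 52.3 CPM in shNSUN2 and 38.4 to 42.0 CPM in FaDu, with 5 of 6 tested, 2 higher and none at 0. Replicate 1 of shNSUN2 stood apart in several of these genes, with 8.29 CPM of MYH11, 2.75 of DES, 3.92 of MSMB and 2.87 of IGKC, against at most 1.53, 0.459, 0.488 and 0.844 CPM in the other shNSUN2 libraries. Without shNSUN2 replicate 1, MMP10, MMP14 and MMP28 were still called, at log2 fold changes of 2.53, -0.88 and -3.23 (edgeR adjusted p = 0.00435, 0.0228 and 0.00655). Without shNSUN2 replicate 3 they were at 2.51, -0.96 and -4.10 (edgeR adjusted p = 0.00164, 0.0149 and 0.00200). Leaving out 1 library does not remove transcripts that were raised in every shNSUN2 library, such as KLK3 and KLK2. Endothelial genes summed to 31.8 to 54.8 CPM in shNSUN2 and 4.07 to 5.84 CPM in FaDu, with 2 of 7 tested and EMCN at 0. CDH5 held nearly all of that difference and was called higher, with 28, 40.0 and 50.7 CPM in shNSUN2, against 1.34, 0.954 and 1.87 CPM in FaDu, while VWF, the other tested gene, was not called (log2 fold change 0.14, edgeR adjusted p = 0.669). The part of these transcripts in the MMP and TIMP results was not tested.

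MMP1, the interstitial collagenase that cleaves fibrillar collagen, lies on chromosome 11 (GRCh38, 102789920 to 102798160) and was among the most abundant members. It had 398, 389 and 444 CPM in the shNSUN2 libraries, against 345, 362 and 348 CPM in the FaDu libraries. Every shNSUN2 library stood above every FaDu library, though by a small margin. Its fitted log2 ratio was 0.22 (SE 0.10, 95% interval -0.01 to 0.46, edgeR adjusted p = 0.171), which did not pass the test. MMP13, collagenase 3, whose preferred substrates include type II collagen, had 50.3, 69.1 and 39.7 CPM in shNSUN2, against 43.4, 44.2 and 35.6 CPM in FaDu. The groups overlapped, and shNSUN2 replicate 2 held the highest value. Its log2 fold change of 0.37 (SE 0.21, 95% interval -0.11 to 0.85, edgeR adjusted p = 0.258) did not pass the test. The intervals allow a rise in either collagenase transcript of up to 0.46 and 0.85 on the log2 scale.

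The stromelysins MMP10 and MMP3 cut proteoglycans, fibronectin and laminin and can activate the proforms of other MMPs. MMP10 (stromelysin-2; chromosome 11, 102770503 to 102780628) averaged 84.0 ± 4.32 CPM in shNSUN2 and 14.9 ± 3.62 CPM in FaDu (SD, n = 3 each). Its single values were 80.4, 88.8 and 83.0 CPM in shNSUN2, against 17.2, 16.8 and 10.8 CPM in FaDu, so the lowest knockdown library held several times the highest FaDu one. MMP10 thus had a log2 fold change of 2.49 (SE 0.20, 95% interval 2.04 to 2.95, edgeR adjusted p = 5.15e-04). It stayed between 2.30 and 2.61 over 14 alternative settings, all past the test, with the lowest value when FaDu replicate 3 was left out.

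MMP3 (stromelysin-1; chromosome 11, 102835801 to 102843803) had 12, 7.27 and 10.8 CPM in shNSUN2, against 7.36, 7.89 and 7.64 CPM in FaDu. shNSUN2 replicate 2 lay below every FaDu library and the other two lay above them all. The log2 fold change was 0.39 (SE 0.21, 95% interval -0.08 to 0.87, edgeR adjusted p = 0.221), not past the test, and 0.58 (SE 0.16, adjusted p = 0.0481) without shNSUN2 replicate 2. MMP3 and MMP10 are close paralogs whose longest transcripts share an exact run of 96 bases, so the authors' counting may have moved some reads between them. Per kilobase of exon, the ratio of MMP10 to MMP3 was 7.80, 14.2 and 8.94 in shNSUN2, against 2.72, 2.49 and 1.64 in FaDu.

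MMP14, the membrane-type protease that cleaves collagen at the cell surface and, with TIMP2, activates the proform of MMP2, lies on chromosome 14 (22836557 to 22849027). It averaged 262 ± 54.4 CPM in shNSUN2 and 525 ± 36.5 CPM in FaDu (SD, n = 3 each). The single values were 217, 322 and 246 CPM in shNSUN2, against 489, 524 and 562 CPM in FaDu. The groups were well separated, and shNSUN2 replicate 2 was the highest of the knockdown libraries. MMP14 had a log2 fold change of -1.0 (SE 0.16, 95% interval -1.37 to -0.64, edgeR adjusted p = 0.00592), and it lay between -1.18 and -0.88 over 14 alternatives, all past the test.

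MMP28 (epilysin), a secreted MMP first described in keratinocytes and testis, had the largest change of the members. It lies on chromosome 17 (35756249 to 35795707) and had 0.177, 0.421 and 0.667 CPM in shNSUN2, against 5.18, 6.02 and 4.22 CPM in FaDu. These levels rest on 12, 25 and 45 estimated counts in shNSUN2 and 317, 328 and 316 in FaDu, and the value 4 is over-represented in the table, so 1 fragment may be worth several counts and the size of the fall is imprecise. The log2 fold change was -3.60 (SE 0.44, 95% interval -4.62 to -2.58, edgeR adjusted p = 0.00227). It ranged from -4.10 without shNSUN2 replicate 3 to -3.23 without shNSUN2 replicate 1, and passed the test in all 14 alternatives. TAF15 runs over MMP28 on the opposite strand without shared exonic bases. TAF15 had 10419 to 13489 estimated counts in shNSUN2 and 8059 to 10299 in FaDu, and whether strand was used in counting is not given in the sources used here.

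MMP9, a gelatinase that cuts denatured and type IV collagen, was listed at 0 in shNSUN2 replicates 1 and 2 and in all 3 FaDu libraries, and at 13 estimated counts in shNSUN2 replicate 3. A listed 0 allows up to about 12 counts in a library (3 fragments of 4 counts each, counting error only), which is 0.165 to 0.224 CPM. MMP9 was therefore not tested, and no difference was detectable at this depth. It also shares 430 exonic bases with the antisense gene SLC12A5-AS1, which had at most 14 counts in any library.

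None of the 3 inhibitors passed the test. TIMP1, a secreted inhibitor of most soluble MMPs but a weak one of MMP14, had 33.8, 35.4 and 46.2 CPM in shNSUN2, against 35.1, 29.4 and 29.1 CPM in FaDu (log2 fold change 0.30, SE 0.16, 95% interval -0.07 to 0.67, edgeR adjusted p = 0.232). The groups overlapped and shNSUN2 replicate 3, the library that stood apart by GC content, was highest. With GC and length offsets TIMP1 had 37.1, 36.9 and 37.0 CPM in shNSUN2, against 35.5, 31.2 and 29.6 CPM in FaDu. These values no longer overlapped, and TIMP1 was still not called (log2 fold change 0.20, edgeR adjusted p = 0.182). TIMP2, which inhibits MMP14 and bridges it to the proform of MMP2, had 14.6, 14.7 and 16.4 CPM in shNSUN2, against 11.1, 17.1 and 16.1 CPM in FaDu (log2 fold change 0.04, SE 0.19, 95% interval -0.39 to 0.47, edgeR adjusted p = 0.896). FaDu replicate 1 was the lowest library and the groups overlapped. TIMP3, which is bound to the matrix and also inhibits ADAM proteases, had 6.18, 6.63 and 5.98 CPM in shNSUN2, against 4.84, 3.78 and 4.41 CPM in FaDu. All its shNSUN2 values lay above all FaDu values. TIMP3 had a log2 fold change of 0.53 (SE 0.17, 95% interval 0.13 to 0.93, edgeR adjusted p = 0.0715), short of the threshold; with GC and length offsets it was 0.57 (adjusted p = 0.0385), and over all 14 alternatives the adjusted p ranged from 0.0385 to 0.238.

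Levels of different genes were compared per kilobase of merged exon length. In shNSUN2 the order by mean was MMP1, MMP14, MMP10, TIMP1, MMP13, MMP3, TIMP2, TIMP3, MMP28 and MMP9. Of these neighbours, MMP14 and MMP10, TIMP1 and MMP13, and MMP28 and MMP9 overlapped between libraries. In FaDu the order was MMP1, MMP14, TIMP1, MMP13, MMP10, MMP3, TIMP2, MMP28, TIMP3 and MMP9, and among neighbours TIMP2 and MMP28 overlapped. MMP10 thus stood at place 3 in shNSUN2 and at place 5 in FaDu.

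The summed level of the 7 MMPs was 320, 348 and 347 CPM per kilobase in shNSUN2, against 315, 332 and 326 in FaDu, and these ranges overlapped. Within that sum the make-up differed between the groups. MMP1 and MMP13 together averaged 227 ± 10.7 CPM per kilobase in shNSUN2 and 193 ± 5.64 in FaDu (SD, n = 3 each), and the stromelysins MMP3 and MMP10 averaged 52.7 ± 1.26 in shNSUN2 and 12.2 ± 2.05 in FaDu. MMP14 averaged 58.6 ± 12.2 CPM per kilobase in shNSUN2 and 118 ± 8.18 in FaDu. Its share of the members' summed level per kilobase was 15.9% in shNSUN2 and 33.7% in FaDu, while the share of MMP10 was 13% in shNSUN2 and 2.44% in FaDu. The 3 TIMPs summed to 25.9, 27.0 and 34.2 CPM per kilobase in shNSUN2, against 25.8, 22.9 and 22.7 in FaDu. The ratio of the 7 MMPs to the 3 TIMPs was 12.4, 12.9 and 10.2 in shNSUN2, against 12.2, 14.5 and 14.4 in FaDu, which overlapped. The ratio of MMP14 to TIMP2 was 18.7, 27.7 and 18.9 in shNSUN2, against 55.4, 38.7 and 44.0 in FaDu. These sums and ratios of chosen genes are given without a test.

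**Figure D2:**
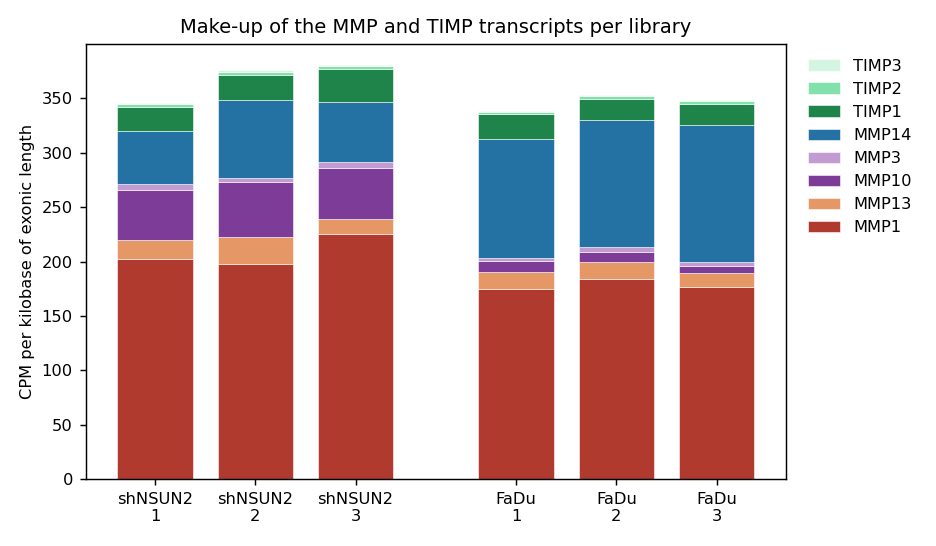
Summed level of 8 members in each library, in CPM per kilobase of exonic length, with the 3 shNSUN2 libraries left of the 3 FaDu libraries. The MMP10 segment is taller and the MMP14 segment shorter in every shNSUN2 library; MMP28 and MMP9, at most 2.11 CPM per kilobase, are not drawn.

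MMP1, MMP3, MMP10 and MMP13 sit in a run of 9 MMP genes on chromosome 11, from MMP7 (start 102520508) to MMP13 (end 102955734). MMP20, MMP27 and MMP8 were at 0 in every library. The other 6 genes were tested and had positive log2 fold changes, of which 3 passed the test, where 8.54% of all tested genes were called higher. MMP7 (matrilysin), an epithelial MMP that lacks the hemopexin domain of most others, averaged 2.56 ± 0.487 CPM in shNSUN2 and 0.275 ± 0.140 CPM in FaDu (log2 fold change 3.20, SE 0.41, edgeR adjusted p = 0.00264). Its FaDu levels rest on 26, 8 and 19 estimated counts. MMP12 (macrophage elastase) had 14.7, 17.7 and 9.30 CPM in shNSUN2, against 6.61, 7.34 and 6.24 CPM in FaDu (log2 fold change 1.05, SE 0.24, edgeR adjusted p = 0.0219). That call was lost without shNSUN2 replicate 1 (adjusted p = 0.0673) or FaDu replicate 1, 2 or 3 (0.0763, 0.0666 and 0.0904). MMP1, the next MMP gene beside MMP10, had a log2 fold change of 0.22 beside 2.49 for MMP10, and this difference between neighbours was not tested.

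**Figure D3:**
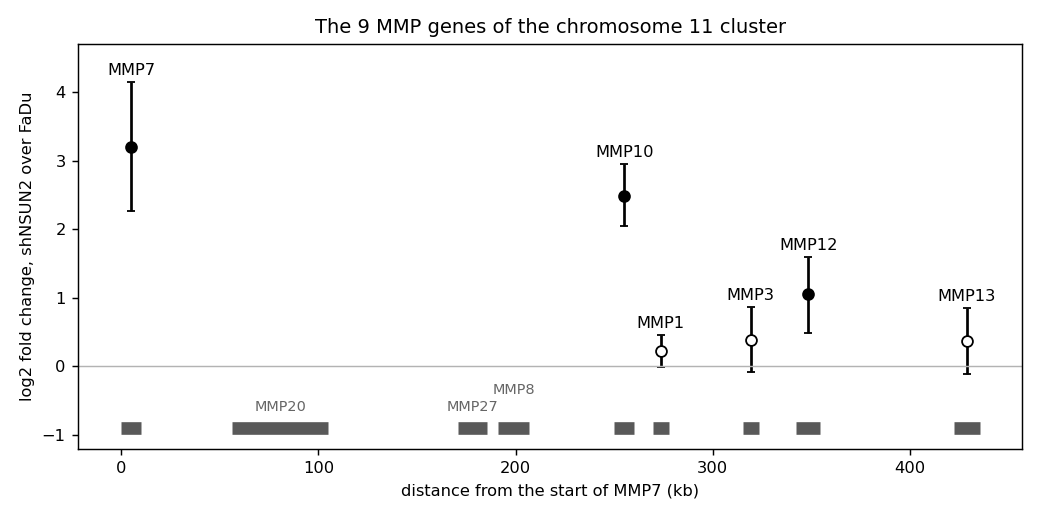
Log2 fold change (shNSUN2 over FaDu, with 95% interval; filled where the adjusted p is under 0.05) of MMP genes along chromosome 11, by distance in kb from the start of MMP7, with gene bodies as bars below. MMP7, MMP10 and MMP12 are filled, MMP1, MMP3 and MMP13 lie lower, and MMP20, MMP27 and MMP8 had no counts.

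Outside the members, 10 of 17 other family genes (MMPs and TIMP4) were tested, with a median log2 fold change of -0.63. Of these, 3 were higher and 5 lower, where 8.54% and 9.97% of all tested genes were. Without shNSUN2 replicate 1 or any 1 of the FaDu replicates, 1 was higher, and without FaDu replicate 2, 2 were lower. Besides MMP7 and MMP12, the membrane-type MMP15 averaged 82.5 ± 11.1 CPM in shNSUN2 and 58.3 ± 6.17 CPM in FaDu (log2 fold change 0.50, SE 0.14, edgeR adjusted p = 0.0474). That call was lost without shNSUN2 replicate 1 or 2 (adjusted p = 0.0758 and 0.0558) or FaDu replicate 1, 2 or 3 (0.0803, 0.177 and 0.167), with upper quartile scaling (0.0733) and with no filter on low counts (0.0560). MMP2, the gelatinase whose proform MMP14 activates, averaged 0.583 ± 0.352 CPM in shNSUN2 and 3.33 ± 0.628 CPM in FaDu (log2 fold change -2.51, SE 0.51, edgeR adjusted p = 0.0144; 0.0549 without FaDu replicate 2). TIMP4 averaged 2.24 ± 0.440 CPM in shNSUN2 and 5.40 ± 0.617 CPM in FaDu (log2 fold change -1.27, SE 0.22, edgeR adjusted p = 0.00807), and it shares 170 exonic bases with SYN2, which lies on the opposite strand. The membrane-type MMP16 averaged 1.43 ± 0.559 CPM in shNSUN2 and 4.14 ± 0.203 CPM in FaDu (log2 fold change -1.53, SE 0.30, edgeR adjusted p = 0.0132; 0.0507 without shNSUN2 replicate 1 and 0.0511 without FaDu replicate 2). All of these but MMP15 and MMP12 were low transcripts.

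MMP11 and MMP19 were also called lower, at log2 fold changes of -1.83 (SE 0.32, edgeR adjusted p = 0.00887) and -3.21 (SE 0.89, edgeR adjusted p = 0.0421). MMP19 had 0, 10 and 11 estimated counts in shNSUN2 and 67, 32 and 104 in FaDu. It was no longer called without shNSUN2 replicate 2 or 3 (adjusted p = 0.0669 and 0.0707) or FaDu replicate 1, 2 or 3 (0.107, 0.0738 and 0.147). MMP11 shares 218 exonic bases with CHCHD10, which had far more counts, and MMP19 shares 814 with TMEM198B, so both are uncertain. MMP17 and MMP24 did not pass the test, at log2 fold changes of 0.01 (95% interval -0.35 to 0.37, edgeR adjusted p = 0.970) and 0.09 (95% interval -1.21 to 1.38, edgeR adjusted p = 0.933). MMP24 had 12 to 36 estimated counts per library. It shares 799 exonic bases with MMP24OS on the opposite strand, which had 697 to 1272, so MMP24 is uncertain too.

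**Figure D4:**
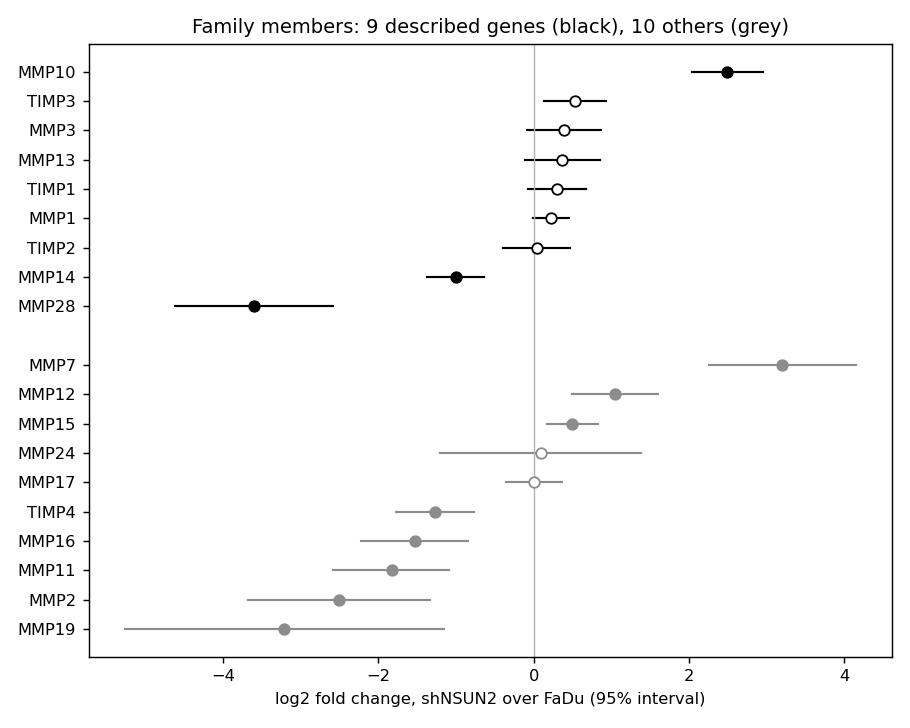
Log2 fold change (shNSUN2 over FaDu) with its 95% interval for the 9 tested members (black, above) and 10 tested relatives (grey, below); filled points have an adjusted p under 0.05. MMP10 and MMP7 lie farthest to the right, and MMP28, MMP19 and MMP2 farthest to the left.

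Genes that set MMP activity moved in both directions. Of 14 such regulators 13 were tested, 2 were higher and 3 lower, where 8.54% and 9.97% of all tested genes were. PLAUR, the receptor that holds urokinase at the cell surface, averaged 22.5 CPM in shNSUN2 and 11.5 CPM in FaDu (log2 fold change 0.97, SE 0.19, edgeR adjusted p = 0.0126). LRP1, a receptor that clears proteases and inhibitors, and CD44, a hyaluronan receptor that can dock MMPs, had log2 fold changes of -1.35 (SE 0.17, edgeR adjusted p = 0.00237) and -0.76 (SE 0.13, edgeR adjusted p = 0.00737). Of 8 tested ADAM proteases 1 was called lower (ADAM19), and of 11 tested ADAMTS proteases 2 were (ADAMTS13 and ADAMTS20), with none higher in either list, where 18.5% of all tested genes were called in either direction. ADAM19 was not called without shNSUN2 replicate 1 or 2 or FaDu replicate 2, and no ADAMTS gene was lower without shNSUN2 replicate 1 or any 1 of the FaDu replicates, while 1 was without shNSUN2 replicate 2.

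Of 20 transcription factors known to act on MMP promoters, all tested, 2 were higher and 8 lower. Of all tested genes, 8.54% were called higher and 9.97% lower. STAT3 fell to 54.9 CPM in shNSUN2, against 154 CPM in FaDu (log2 fold change -1.49, SE 0.11, edgeR adjusted p = 5.15e-04), and the ETS factors ETS1 and ETS2 had log2 fold changes of -1.39 (SE 0.15, edgeR adjusted p = 0.00126) and -0.87 (SE 0.10, edgeR adjusted p = 0.00194). ELF3, an epithelial ETS factor, averaged 632 CPM in shNSUN2 and 254 CPM in FaDu (log2 fold change 1.31, SE 0.13, edgeR adjusted p = 0.00106). Of the 8 AP-1 factors in that list, grouped after their values were seen, FOS, FOSL1, JUN and JUNB were lower and none was higher. Without shNSUN2 replicate 1 or FaDu replicate 1, 2 of these were lower, and without FaDu replicate 3, 1 was lower and 1 higher; of the whole list 5 were lower without FaDu replicate 1 or 3. Of 14 tested matrix substrates of MMPs 1 was higher and 6 lower, beside the same shares of all tested genes. Without shNSUN2 replicate 1 none of these substrates was higher and 3 were lower, and without FaDu replicate 2 or 3, 2 and 3 were lower. The type IV collagens COL4A2 and COL4A1, of basement membranes, had log2 fold changes of -2.16 (SE 0.19, edgeR adjusted p = 7.00e-04) and -0.99 (SE 0.18, edgeR adjusted p = 0.0105), and COL17A1 and COL5A1 were at -0.72 and -1.16.

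Among 9676 other genes with at least 10 CPM on average, SYK, TUBGCP3 and HSD17B11 followed MMP10 most closely over the 6 libraries (Pearson r of log2 CPM 0.999, 0.995 and 0.994), and SMIM14, ARG2 and CHMP1B followed MMP14 (0.997, 0.996 and 0.996). Many genes came near: 372 had an r over 0.95 with MMP10 and 329 with MMP14, over 6 libraries that fall into 2 groups.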

How the data were processed

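RNA was sequenced from FaDu cells titled with a hairpin against NSUN2 (3 libraries) and from cells titled with the line's name alone (3 libraries). The authors deposited estimated counts per gene, used as they stand because they are whole numbers. Per the submitters' processing notes, HISAT2 2.0, StringTie 1.3.0 and Bowtie 0.12.2 were used, without a stated role; the notes name the mouse build mm8, which cannot give human identifiers. No human build, annotation or strand setting is stated in them. In each library the value 4 was 3.25 to 3.81 times more frequent than 3 and 5 averaged, so 1 fragment may be worth about 4 counts and low values are less precise than they look.

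Identifiers were matched to symbols (58472 in a gene name table, 58552 in GENCODE 29, whose GRCh38 positions and merged exon lengths are given). Every column matched a library by its title. The test was that of edgeR 4.0.16 under R 4.3.3 (glmQLFit, robust; TMM; filterByExpr with minimum count 10 and minimum total 15; group alone), two-sided, Benjamini-Hochberg adjusted over 19081 genes, threshold 0.05. SE is the log2 fold change over the square root of F, and intervals are 95%, not adjusted for many genes. CPM use TMM-adjusted totals. An exact permutation test was added for NSUN2. The procedure was tested on simulated data. Alternatives were DESeq2 1.42.0, other scalings, no filter, GC and length offsets (splines with 5 degrees of freedom; 99.7% of tested genes had both values), a replicate block, counts divided by 4 and each library left out.

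Members and lists were chosen with earlier results of these data known. Named genes are the 10 members, NSUN2, tested relatives, and up to 4 called genes per list by smallest adjusted p whose higher group averages 1 CPM or more. Genes most like MMP10 and MMP14 were found by Pearson r of log2(CPM + 0.5). Values of 1 gene that this rule would name are not reported here; it stays in the counts of its list.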

Additional observations from a re-analysis of the deposited data

How the results depend on the processing

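MMP10, MMP14, MMP28 and NSUN2 kept their direction and call in all 14 alternatives. Without shNSUN2 replicate 2, or with GC and length offsets, 2 members were called higher (MMP3 or TIMP3 joining MMP10); leaving out 1 library gave 1 to 2 members higher and 2 lower. Over all genes, leaving out 1 library gave 478 to 2090 genes higher and 861 to 2181 lower, against 1629 and 1903 with all 6; single values were 886 and 1183 without shNSUN2 replicate 1, 626 and 970 without FaDu replicate 1, 478 and 878 without FaDu replicate 2, and 493 and 861 without FaDu replicate 3. With GC and length offsets 2814 genes were higher and 2207 lower. With upper quartile scaling, which moved the median of all genes to -0.087, 1258 were higher and 2213 lower.

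Same-numbered libraries did not deviate together (correlations of -0.091, 0.026 and -0.050 across 12834 genes), so replicate numbers were not taken as pairs. With the replicate block 969 genes were higher and 1401 lower, the member calls stayed the same, and MMP15 and MMP19 were not called (adjusted p = 0.0907 and 0.0805); with the block and the offsets together MMP19 was not called either (0.0774).

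TIMP2, never called, changed sign with upper quartile scaling (-0.04) and without shNSUN2 replicate 3 (-0.01) or FaDu replicate 1 (-0.12); leaving out 1 library gave -0.12 to 0.16. MMP17 did so with upper quartile scaling and without shNSUN2 replicate 3 (-0.07 each), with both offset fits and without FaDu replicate 1 (-0.03 each), with no filter (-0.02), and without FaDu replicate 2 or with counts divided by 4 (-0.01 each), with -0.07 to 0.09 when 1 library was left out. MMP24 did so with upper quartile scaling (-0.0010), at -0.18 without shNSUN2 replicate 3 and at -0.13 without FaDu replicate 2, with -0.18 to 0.46 when 1 library was left out. The cause of these shifts was not tested. Per gene rather than per kilobase, MMP14 ranked above MMP1 in FaDu, at place 1 against place 2. In both groups MMP13 then ranked above TIMP1, and TIMP2 above MMP3. MMP28 in shNSUN2, MMP7 in FaDu, MMP19 and MMP9 are limited by depth.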
